A study of Homo sapiens with 12 samples.

Results

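The collagen chain genes described here are the 44 rows of the deposited count table, of 36601 rows in all, that map to protein-coding symbols of the form COL, a type number, A and a chain number. The rule itself uses names only, but the family was chosen with earlier results of these data known. They cover 28 collagen types and were grouped as fibrillar (types 1, 2, 3, 5, 11, 24 and 27, 11 genes), basement membrane (type 4, 6 genes) and other (27 genes). Bulk RNA sequencing had been done on 12 libraries of H9, an established human embryonic stem cell line labelled wild-type, taken along a differentiation directed at γδ T cells. Each of days 10, 15, 20 and 25 has 3 libraries, all of 1 batch; the labels call the cells of day 10 haematopoietic progenitors, those of days 15 and 20 T progenitors, and those of day 25 mature γδ T cells. Every group went through the same earlier steps, in which aggregates met CHIR99021, BMP4, Activin A and a Rock inhibitor, then VEGF and bFGF, and then also Flt3L, IL-7, SCF and SB431542. From day 10 the cells were kept in MEM-α with serum, GlutaMAX, an additive named MAP, Flt3L, IL-7, SCF and DLL4, a Notch ligand. The stem cells had been grown on feeder cells of mouse embryonic fibroblasts, and the table lists human genes only. The labels name no sort of cells by day, and no text in them ties a replicate to a culture of its own, so the spread behind the p-values may be technical only.

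Collagens are proteins of the extracellular matrix built as a triple helix from chains that are each the product of a gene of their own. Along the helix a glycine recurs at a fixed interval, since only glycine fits at the centre. Fibrillar collagens pack side by side into the fibrils of connective tissue, type IV chains form the sheet-like network of basement membranes under epithelia and around vessels, and the other types cover fibril surfaces, link fibrils to membranes or span the cell membrane. In bone marrow and other blood-forming tissue, collagen is known mainly as a product of stromal cells and vessels, and it is also a ligand that platelets bind.

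Exons that carry the helix show the shared build of the family, and one exon of 54 bases is printed for each of 4 genes that the results below turn on. Each holds 18 codons, with the 6 glycine codons in capitals and the other bases in lower case, read from the coding strand of GRCh38 with GENCODE release 29. In order they lie at chr17:50197949-50198002, minus strand, at chr2:188988081-188988134, plus strand, at chr1:86115325-86115378, minus strand, and at chr13:110445829-110445882, plus strand.
COL1A1 exon 8: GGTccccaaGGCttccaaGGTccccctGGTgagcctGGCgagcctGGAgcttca
COL3A1 exon 6: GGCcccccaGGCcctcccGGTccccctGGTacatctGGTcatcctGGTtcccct
COL24A1 exon 4: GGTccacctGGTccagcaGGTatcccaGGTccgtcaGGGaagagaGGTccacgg
COL4A2 exon 17: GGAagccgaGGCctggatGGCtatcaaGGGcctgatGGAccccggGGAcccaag
Each exon was picked as the first internal one of 54 bases with whole codons and a glycine codon every 9 bases. That spacing was thus set by the choice and is no result, while the bases between differ among the 4 exons. Over the 11 fibrillar genes, 305 of 627 internal coding exons (48.6%) had a length of 54 bases and 84.2% a multiple of 9. In the 6 type IV genes 12 of 285 (4.21%) had that length and 47.7% a multiple of 9, and in the 27 other genes 157 of 1004 (15.6%) and 56.3%. Among all other protein-coding genes of the table the shares were 0.411% and 13.6%. COL24A1, a fibrillar gene by type, held 33 exons of 54 bases among 58, COL1A1 21 among 49 and COL3A1 24 among 49, while COL4A2 held 1 among 45.

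**Figure D1:**
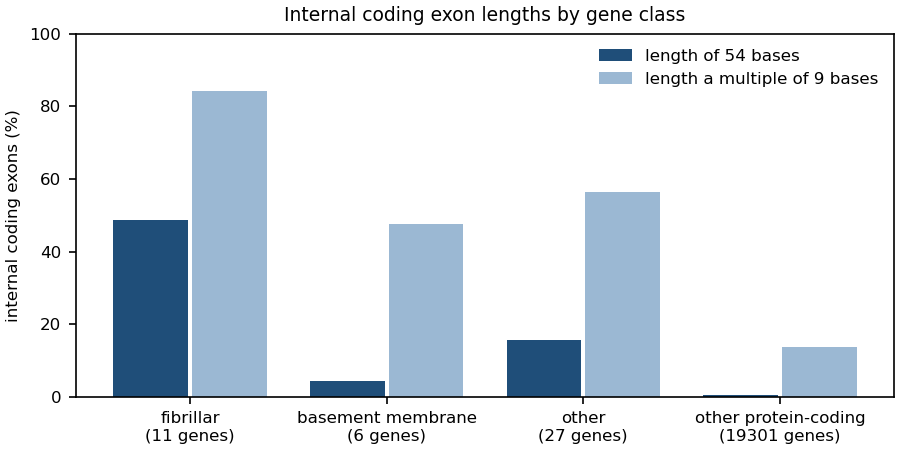
Percent of internal coding exons that are 54 bases long (dark bars) or a multiple of 9 bases long (light bars), by collagen class and in all other protein-coding genes, from 1 main transcript per gene. The fibrillar class reached 48.6% and 84.2%, the other protein-coding genes 0.411% and 13.6%.

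Libraries held between 27026196 and 39811230 counts and between 22453 and 24771 genes with a count. Levels are CPM (counts relative to library size after TMM scaling), given as mean ± SD of 3 libraries or per library, and a call is a Benjamini-Hochberg adjusted p under 0.05 over 20183 genes in edgeR's quasi-likelihood test. A log2 fold change carries its SE. In bulk samples fewer cells of a type and less RNA per cell cannot be told apart. Against the label of day 25, CD3D and CD3G, parts of the T-cell receptor complex, had 0 counts in all 3 day 25 libraries, and the summed level of 8 T-cell markers there was 9.52 to 11.7 CPM. Of the 5 T-cell markers tested, 3 were higher at day 25 than at day 10 and 1 lower: TRGC1, a γ chain constant gene, had means of 1.69 and 10.0 CPM, TRDC, the δ chain constant gene, 0.109 and 0.379 CPM with overlapping libraries, CD3E 0 and 17 counts, and CD2 0.360 and 0.0161 CPM. TMM factors ran from 0.753 in a day 15 library to 1.17 at day 20. Without TMM the median log2 change of all tested genes went from 0.20 to -0.32 in the first step (day 15 against day 10), from 0.10 to 0.73 in the second (day 20 against day 15) and from -0.03 to -0.19 in the third (day 25 against day 20). In the first step library-size scaling turned the sign of 7 collagen calls, the largest at 0.46 with TMM (COL1A2), and ended those of COL11A1 (0.59 with TMM, 0.062 without), COL14A1 (0.62 and 0.086) and COL4A4 (1.25 and 0.72). In the second it turned COL22A1 and COL6A3 and ended COL5A3, and in the third it turned COL4A1 and ended the calls of COL16A1, COL17A1, COL22A1, COL8A2 and COL9A1.

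Summed collagen RNA was 2.53 times as high at day 15 as at day 10, was highest at day 20, and at day 25 stood at 0.926 times its day 20 level. The 44 genes summed to 2442, 2415 and 2401 CPM at day 10, 6027, 6145 and 6190 at day 15, 8199, 8275 and 8437 by day 20, and 7649, 7758 and 7654 by day 25. No library of a day overlapped those of another day. As a share of all counts, without TMM, they took 0.265%, 0.463%, 0.966% and 0.798% on days 10, 15, 20 and 25. The 3 classes had different courses. Fibrillar genes went from 1455 ± 17.1 to 3417 ± 39.2, 6732 ± 99.3 and 4759 ± 39.7 CPM over the 4 days. Of these sums COL24A1 alone held 299, 1836, 19.9 and 2.34 CPM, so it carried most of the rise to day 15. The smaller rises of COL3A1, COL1A2 and COL5A1 to day 15 turned negative with library-size scaling. Type IV genes were at 353 ± 3.60 CPM at day 10, at 1822 ± 30.6 at day 15, and back at 366 ± 11.2 and 363 ± 8.63 at days 20 and 25. COL4A2 and COL4A1 held 1287 and 474 CPM of the day 15 sum, while COL4A5 and COL4A6 were called lower at day 15 than at day 10. The other collagens went from 612 ± 2.82 to 881 ± 32.4, 1205 ± 13.8 and 2564 ± 27.2 CPM. As a share of all counts they were level between days 10 and 15, at 0.0669% and 0.0666%. Of their day 25 sum COL6A1 and COL6A2 held 921.5 and 933 CPM. An exact permutation F test over all 15400 partitions of the libraries gave p = 6.5e-05, the smallest it can give, for the sum of all, of the fibrillar and of the other genes (8.7e-05 after Benjamini-Hochberg adjustment over the 4 sums), and p = 0.0035 for type IV.

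**Figure D2:**
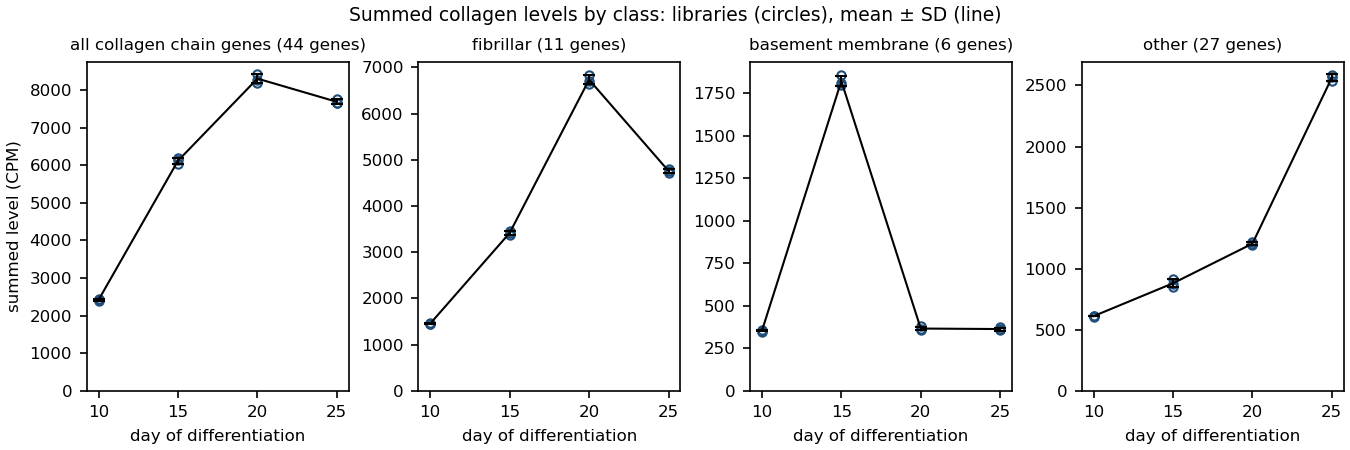
Summed CPM (y axis, from 0) against day of differentiation (x axis) for all 44 collagen chain genes and for the fibrillar, basement membrane and other classes. Circles are the 12 libraries and the line joins day means with SD bars (n = 3); the basement membrane class stands at 1822 CPM at day 15 and between 353 and 366 CPM on the other days.

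Of the 44 genes 41 passed the filter on low counts and were tested, and all 41 differed among the 4 days, against 90.5% of all tested genes. In the first step 30 were higher, 7 lower and 4 not called, where 42.4% of all tested genes were higher and 30.8% lower; the median log2 change was 0.83 for the collagens and 0.20 for all tested genes. With library-size scaling the same comparison gave 20 higher and 16 lower. In the second step 25 were higher and 10 lower (all tested genes 40.6% and 36%), with medians of 1.19 and 0.10. In the third step 14 were higher, 16 lower and 11 not called (all tested genes 24.5% and 25.1%), shares of 34.1% and 39% of the collagens, with medians of 0.02 and -0.03. There library-size scaling gave 8 higher and 17 lower, and leaving out day 25 replicate 2 gave 9 higher. Over the whole course, day 25 against day 10, 32 were higher and 4 lower (all tested genes 38.6% and 36%), with medians of 1.98 and 0.02. A gene that passed the filter through a day on which it was high had to differ between days, so these counts describe the genes and test nothing about the family.

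With TMM the highest day mean fell on day 10 for 1 of the 41, COL4A5, on day 15 for 11, on day 20 for 14 and on day 25 for 15. This split depends on the scaling. COL18A1 and COL7A1, highest at day 15 with TMM, were lower there than at day 10 with library-size scaling (log2 -0.30 and -0.29). COL11A2, also highest at day 15 with TMM, was then higher at day 20 than at day 15 (0.51). Among all tested genes the shares highest on days 10, 15, 20 and 25 were 25%, 34%, 15.1% and 25.9%. From day 20 to day 25 the calls with TMM differed by class. Of the 11 fibrillar genes 8 were lower and 2 higher, and of the 5 tested type IV genes 2 were lower and 1 higher. Of the 25 other genes 6 were lower and 11 higher. Library-size scaling ended 5 higher calls of the other genes (COL16A1, COL17A1, COL22A1, COL8A2 and COL9A1). It also turned the sign of the 1 higher type IV call, COL4A1. The difference between the classes was not tested.

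**Figure D3:**
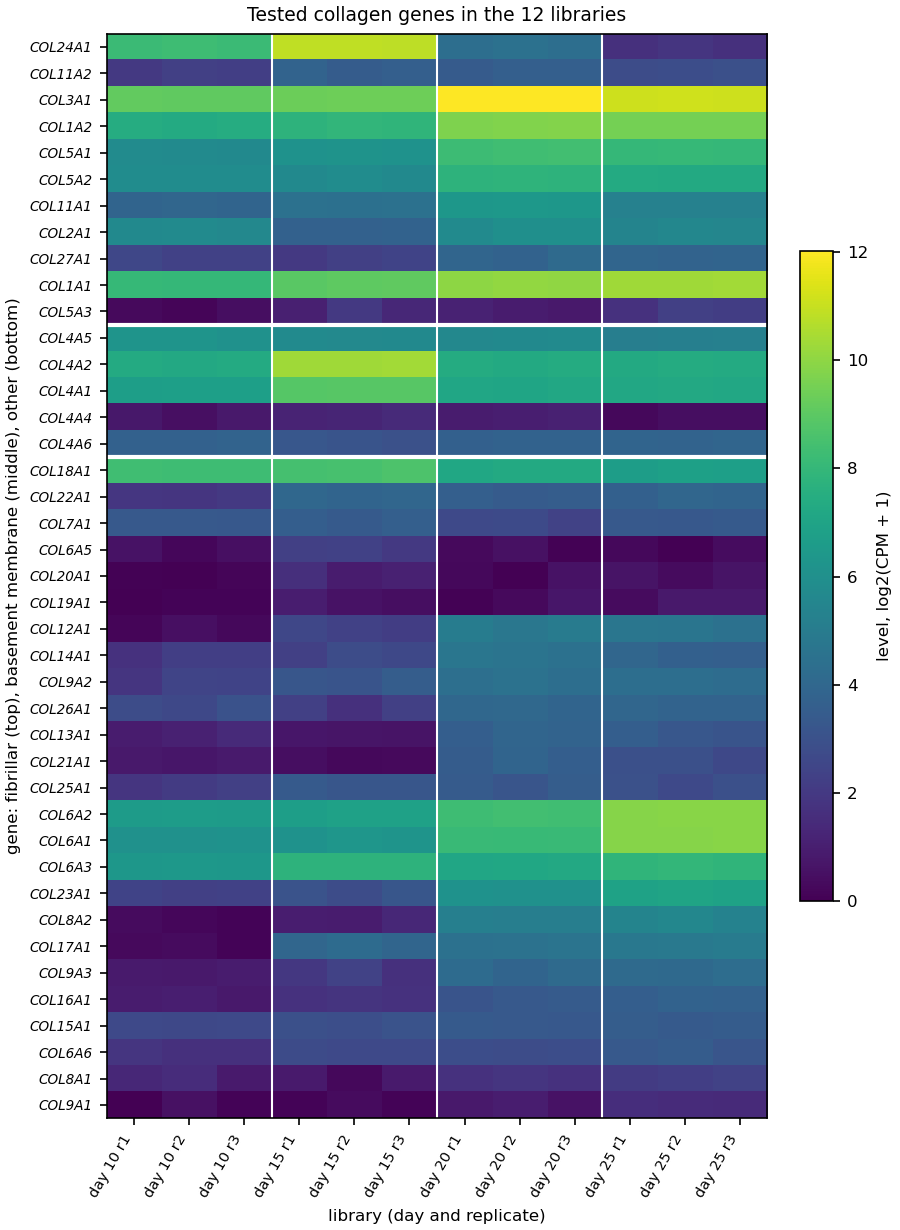
Level, as log2(CPM + 1), of the 41 tested collagen genes (rows) in the 12 libraries (columns, by day and replicate), with fibrillar genes at the top, basement membrane genes in the middle and the others at the bottom, ordered within a class by the day of the highest mean. Replicates of a day look alike, and blocks change at the day borders, as for COL24A1, with 1836 CPM at day 15 and 2.34 at day 25.

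COL3A1 (ENSG00000168542, chr2:188974320-189012746, GRCh38), the single chain of type III collagen of soft and vascular tissue, was the most abundant collagen per length on 3 of the 4 days. It stood at 558, 541 and 537 CPM at day 10, 646, 664 and 664 at day 15, 4079, 4059 and 4163 by day 20, and 2228, 2264 and 2177 by day 25. The day 20 libraries lay far above all others, and no groups overlapped. From day 15 to day 20 it rose 6.23-fold, a log2 change of 2.64 ± 0.029 (SE; edgeR adjusted p = 8.9e-47), and by day 25 it had fallen by 0.88 on the log2 scale. It made up 22.5%, 10.8%, 49.4% and 28.9% of collagen counts on the 4 days. The early change, from day 10 to day 15, was 0.27 ± 0.028 with TMM and -0.26 with library-size scaling. Of its type I partners, COL1A1 followed another course, while COL1A2 was also highest at day 20. COL1A1 (ENSG00000108821, chr17:50183289-50201632) and COL1A2 (ENSG00000164692, chr7:94394561-94431232) encode the chains that combine into type I collagen, the main collagen of bone, skin and tendon. COL1A1 read 265, 257 and 258 CPM at day 10, 496, 524 and 535 at day 15, 1023, 1065 and 1058 by day 20, and 1271, 1271 and 1290 by day 25. It was called higher at each step and had its highest mean at day 25, 4.92-fold its day 10 level (log2 2.30 ± 0.032 (SE; edgeR adjusted p = 9.3e-43)). COL1A2 gave 170.5, 165 and 172 CPM at day 10, 218, 242 and 234 at day 15, 841, 844 and 873 by day 20, and 738, 732 and 731 by day 25. Its peak was at day 20, after a rise of 1.88 ± 0.035 (SE; edgeR adjusted p = 3.3e-38), and it fell by 0.22 to day 25 while COL1A1 rose by 0.28.

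Type V and type XI chains enter the core of type I and type II fibrils and limit their width. COL5A1 was 54.8, 52.8 and 51.8 CPM at day 10, 69.1, 71.3 and 68.5 at day 15, 307, 326 and 334 by day 20, and 256, 266 and 255 by day 25, so both late days lay above both early ones. Its log2 change from day 15 to day 20 was 2.21 ± 0.042 (SE; edgeR adjusted p = 1.2e-37). COL5A2 measured 57.3, 55.8 and 56.8 CPM at day 10, 51.0, 57.0 and 52.0 at day 15, 218, 224 and 219 by day 20, and 162, 154 and 157 by day 25. Days 10 and 15 overlapped, and from day 15 to day 20 the change was 2.05 ± 0.045 (SE; edgeR adjusted p = 4.8e-35). COL5A3, a further type V chain at low level, had day means of 0.240, 1.87, 0.941 and 3.28 CPM, and its call as lower at day 20 against day 15 (log2 -0.98 ± 0.37) was lost without day 15 replicate 2 (-0.50), day 20 replicate 2 or day 20 replicate 3. COL11A1 had 13.7, 14.8 and 13.5 CPM at day 10, 21.7, 20.7 and 21.2 at day 15, 80.7, 84.7 and 82.4 by day 20, and 37.6, 38.2 and 38.2 by day 25. It rose to day 20 by 1.96 ± 0.066 (SE; edgeR adjusted p = 3.7e-28) and then fell by 1.12, with no overlap between days. COL11A2 showed 3.05, 3.87 and 3.75 CPM at day 10, 13.2, 10.5 and 11.6 at day 15, 9.97, 11.5 and 11.3 by day 20, and 5.96, 6.10 and 6.59 by day 25. It rose from day 10 to day 15, by 1.72 ± 0.15 (SE; edgeR adjusted p = 8.7e-14), and days 15 and 20 overlapped. Both COL5A1 and COL5A2 fell from day 20 to day 25, by 0.31 and 0.48.

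COL2A1, the chain of type II collagen of cartilage, dipped at day 15, with 50.7, 52.3 and 47.8 CPM at day 10, 12.4, 12.3 and 12.9 at day 15, 52.2, 62.7 and 63.1 by day 20, and 42.2, 46.7 and 45.1 by day 25. It fell to day 15 by 2.01 on the log2 scale and rose to day 20 by 2.24 ± 0.079 (SE; edgeR adjusted p = 1.6e-27); the call as lower at day 25 against day 10 (log2 -0.17 ± 0.067) was lost without day 10 replicate 2 or day 25 replicate 1. Markers of cartilage and bone were low throughout, and 8 of them summed to between 9.76 and 20.7 CPM in any library. COL27A1, a fibrillar collagen also known from cartilage, had 4.86, 3.99 and 3.95 CPM at day 10, 3.00, 3.87 and 4.30 at day 15, 14.0, 12.7 and 17.0 by day 20, and 14.3, 13.1 and 13.8 by day 25. Its early days overlapped, its late days overlapped, and the step between them was 1.97 ± 0.15 (SE; edgeR adjusted p = 2.2e-15).

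COL24A1 (ENSG00000171502, chr1:85729233-86156943) encodes a fibrillar chain of minor abundance in tissues, known from developing bone and cornea. With TMM its fall from day 15 to day 20 was the largest change between adjacent days among the 41 tested collagens; with library-size scaling it was -5.90 on the log2 scale, beside 6.02 for the rise of COL21A1 over the same days. The libraries read 296, 307 and 295 CPM at day 10, 1847, 1847 and 1813 at day 15, 19.3, 21.1 and 19.2 by day 20, and 2.14, 2.68 and 2.21 by day 25. Day 15 stood highest, day 10 next, and days 20 and 25 far below, without overlap. The rise to day 15 was 6.13-fold (log2 2.62 ± 0.034 (SE; edgeR adjusted p = 1.9e-43)), and the fall to day 20 was 92.1-fold (log2 -6.53 ± 0.044 (SE; edgeR adjusted p = 4.6e-54)). A further fall of 8.39-fold followed by day 25. At day 15 it held 30.0% of all collagen counts and was the highest collagen per length, at 192 CPM per kb of exon against 96.6 for COL3A1; at day 25 it held 0.0305%. Over the same days the summed level of 6 megakaryocyte markers was 4613 to 4944, 22200 to 23100, 381 to 389 and 79.1 to 86.6 CPM, and all 6 were called higher at day 15 and lower at day 20. GP6, a collagen receptor gene of platelets, had day means of 88.9, 452, 4.63 and 1.02 CPM. ITGA2, a further collagen receptor gene of platelets, had another course, with 25.1, 21.2, 4.39 and 14.5 CPM. It was not called at day 15 against day 10 and was higher at day 25 than at day 20. The part of megakaryocytes in the COL24A1 level was not tested. The gene took 1836 of the 3417 CPM of the fibrillar class at day 15 and 19.9 of 6732 CPM at day 20. Its promoter is shown because the gene had the widest range of the family. The window runs from 250 bases before to 30 after the RefSeq start (chr1:86156743-86157022, minus strand, GRCh38.p14).
COL24A1 promoter: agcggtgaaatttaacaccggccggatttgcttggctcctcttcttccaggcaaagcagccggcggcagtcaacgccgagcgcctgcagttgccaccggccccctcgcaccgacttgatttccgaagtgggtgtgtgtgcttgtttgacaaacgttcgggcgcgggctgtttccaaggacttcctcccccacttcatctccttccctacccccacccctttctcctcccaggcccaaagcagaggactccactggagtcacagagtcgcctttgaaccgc
None of 4 short promoter motifs, spelled out with the type IV genes, occurs in the printed window on either strand, while the longer window searched, to 50 bases after the start, holds a GC box. In the other promoters shown, matches stand in capitals.

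**Figure D4:**
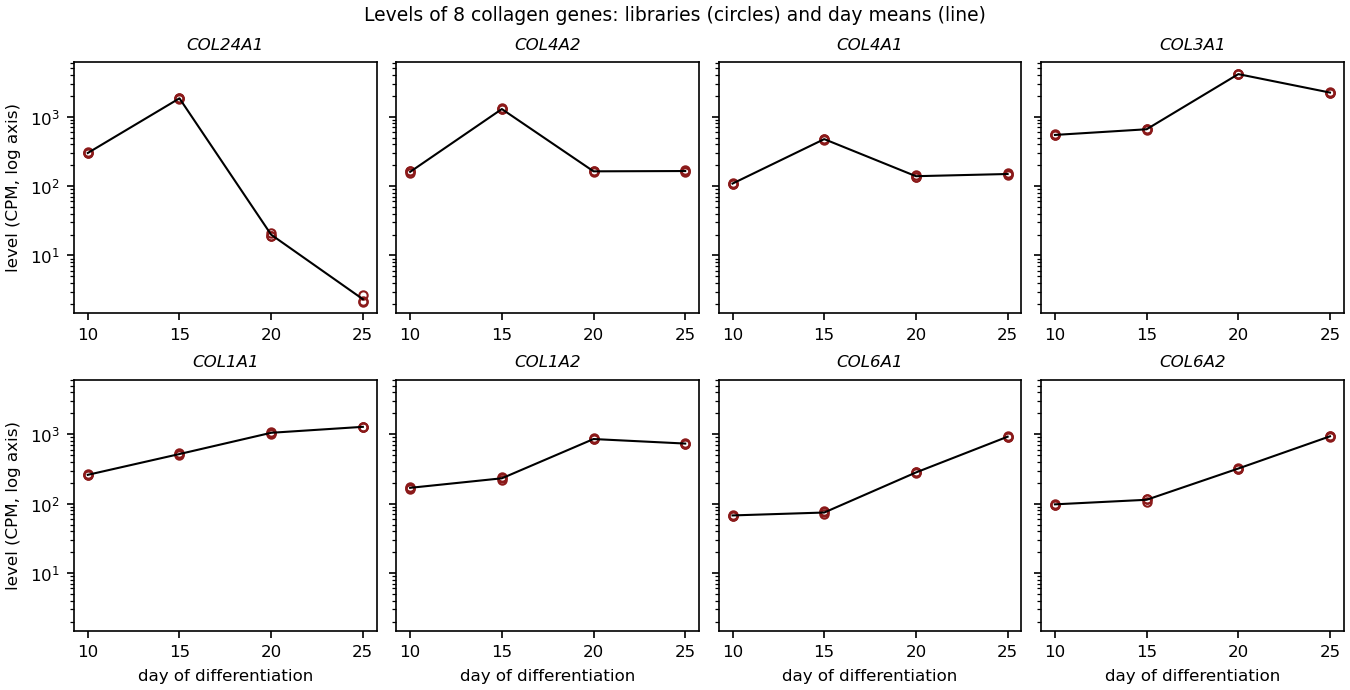
Level of 8 collagen genes in CPM (log axis, the same in all panels) against day of differentiation; circles are libraries and the line joins the day means. COL24A1, COL4A2 and COL4A1 peak at day 15 with means of 1836, 1287 and 474 CPM, COL3A1 and COL1A2 at day 20, and COL1A1, COL6A1 and COL6A2 at day 25.

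Among basement membrane chains, COL4A1 (ENSG00000187498, chr13:110148963-110307233) and COL4A2 (ENSG00000134871, chr13:110305812-110513209) encode the chains of the common type IV network, and both were highest at day 15. COL4A2 read 163, 154 and 163 CPM at day 10, 1270, 1271 and 1320 at day 15, 166, 158 and 165 by day 20, and 159, 170.1 and 165 by day 25. The day 15 libraries stood apart, and those of the other days overlapped. It rose 8.04-fold to day 15 (log2 3.01 ± 0.036 (SE; edgeR adjusted p = 5.8e-45)) and fell 7.90-fold to day 20 (log2 -2.98 ± 0.036 (SE; edgeR adjusted p = 3.5e-45)), and at day 25 it lay within 0.04 ± 0.035 (log2, SE) of day 10. COL4A1 gave 108, 108 and 109.5 CPM at day 10, 465, 481 and 476 at day 15, 136, 134 and 146 by day 20, and 148, 153 and 146 by day 25. Its rise was 4.37-fold and its fall 3.42-fold, both smaller than those of COL4A2 in size. The small rise of COL4A1 from day 20 to day 25 (log2 0.11 ± 0.037) was lost without day 20 replicate 1 or 2 or day 25 replicate 2 and turned negative with library-size scaling. At day 15 COL4A2 held 21.0% of collagen counts. Antisense genes overlap COL4A2 exons, COL4A2-AS1 and COL4A2-AS2, but had 85 and 637 counts in all 12 libraries.
The pair is transcribed in opposite directions, with 126 bases between the RefSeq starts, while the GENCODE spans given above overlap. The region around these RefSeq starts is shown because both genes rose and fell together (chr13:110307128-110307313, plus strand as for COL4A2, GRCh38.p14). Capitals mark a CCAAT box and a GC box.
COL4A1-COL4A2 shared promoter: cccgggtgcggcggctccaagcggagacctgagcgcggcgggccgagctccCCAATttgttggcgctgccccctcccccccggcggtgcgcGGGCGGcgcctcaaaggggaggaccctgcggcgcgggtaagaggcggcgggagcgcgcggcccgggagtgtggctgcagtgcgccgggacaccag
Motifs were searched on both strands of 34943 RefSeq windows from 250 bases before to 50 after a start, which held 32 collagen genes. A collagen gene was counted if any of its windows held the motif. The shares of all windows are over single windows, so the counts of genes cannot be set against them. The CCAAT box, its letters as in the name, was in 34.6% of all windows and those of 12 collagen genes. The GC box was read as GGGCGG and was in 44.9% of all windows and those of 21 collagen genes. For the TATA box the letters were TATAAA, with 11.6% of all windows and 7 collagen genes. A motif of the GATA family of blood cell factors, AGATAA, was in 10.4% of all windows and in those of 3 collagen genes. No match of one motif overlaps another in the printed windows. A match is a description of letters, not a site in use.

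Among the chains of the other type IV networks, COL4A5 had 72.6, 73.1 and 66.5 CPM at day 10, 53.1, 48.9 and 52.0 at day 15, 47.8, 51.7 and 53.7 by day 20, and 34.5, 35.8 and 37.0 by day 25. With TMM it was the 1 collagen tested with its highest mean at day 10, and day 25 against day 10 gave -0.98 ± 0.059 (SE; edgeR adjusted p = 4.9e-19) on the log2 scale. COL4A6 lies head to head with COL4A5, with 379 bases between the RefSeq starts. It had 12.4, 12.5 and 13.3 CPM at day 10, 8.56, 7.78 and 6.87 at day 15, 11.7, 12.6 and 12.8 by day 20, and 13.5, 13.2 and 13.9 by day 25. It was lower at day 15 and overlapped between days 10 and 20. COL4A4 had day means of 0.614, 1.45, 1.01 and 0.301 CPM; its call as higher at day 15 was lost without day 10 replicate 2 or day 15 replicate 3, with library-size scaling or without the filter, and one as lower at day 25 against day 10 appeared without day 10 replicate 2. From day 20 to day 25 COL4A4 fell 3.29-fold (log2 -1.72, edgeR adjusted p = 0.0025). COL4A3 did not pass the filter, with 71 counts over the 12 libraries and a highest day mean of 0.278 CPM, and shares exon bases with AC097662.1 on the other strand. Of 15 partner genes of the basement membrane (laminin chains, nidogens, perlecan and agrin), 8 were higher and 6 lower in the first step, 8 and 5 in the second, 4 and 5 in the third, and 9 and 5 over the course. That is 53.3% and 40%, 53.3% and 33.3%, 26.7% and 33.3%, and 60% and 33.3%, beside 42.4% and 30.8%, 40.6% and 36%, 24.5% and 25.1%, and 38.6% and 36% of all tested genes, so the third step was near the share of all genes. LAMC1, the laminin γ1 chain, had day means of 133, 411, 228 and 229 CPM. NID1, whose product links laminin to type IV collagen, fell from 586 ± 11.0 to 52.9 ± 4.68 CPM. HSPG2, the perlecan gene, fell to day 15 by 1.66 and rose to day 20 by 1.14.

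Type VI collagen forms beaded filaments around cells and was the main gain of the last step. COL6A1 (ENSG00000142156, chr21:45981737-46005050) read 67.1, 67.4 and 68.2 CPM at day 10, 69.7, 78.9 and 74.6 at day 15, 284, 275 and 284 by day 20, and 916, 917 and 932 by day 25. COL6A2 (ENSG00000142173, chr21:46098097-46132849) read 96.2, 100.3 and 96.4 CPM at day 10, 107, 117 and 117 at day 15, 312, 328 and 321 by day 20, and 920.1, 939 and 941 by day 25. Both were far higher at day 25 than on any other day, and both had risen at day 20. From day 20 to day 25 COL6A1 rose 3.28-fold (log2 1.71 ± 0.035 (SE; edgeR adjusted p = 3.9e-35)) and COL6A2 2.91-fold (log2 1.54 ± 0.035 (SE; edgeR adjusted p = 1.1e-33)). Over the course the rises were 13.6-fold and 9.55-fold. They took 12.0% and 12.1% of collagen counts at day 25, next to 2.79% and 4.04% at day 10. From day 10 to day 15 the small change of COL6A1 (0.14 ± 0.04) was lost without day 15 replicate 2, and that of both genes turned negative with library-size scaling. COL6A3, the largest chain of type VI, had 81.3, 83.4 and 82.3 CPM at day 10, 215, 215 and 216 at day 15, 139.7, 140.5 and 152 by day 20, and 231, 247 and 235 by day 25. Its course differed, with a first rise at day 15 of 1.39 ± 0.041 (SE; edgeR adjusted p = 2.2e-30). COL6A5 was highest at day 15 with day means of 0.363, 3.65, 0.254 and 0.170 CPM, and COL6A6 had 2.34, 5.42, 6.10 and 9.16 CPM. COL6A1 and COL6A2 are neighbours on chromosome 21. The promoter of COL6A2 is shown as that of the collagen second only to COL3A1 per length at day 25 (chr21:46097862-46098141, plus strand), with a TATA box and 4 GC boxes in capitals.
COL6A2 promoter: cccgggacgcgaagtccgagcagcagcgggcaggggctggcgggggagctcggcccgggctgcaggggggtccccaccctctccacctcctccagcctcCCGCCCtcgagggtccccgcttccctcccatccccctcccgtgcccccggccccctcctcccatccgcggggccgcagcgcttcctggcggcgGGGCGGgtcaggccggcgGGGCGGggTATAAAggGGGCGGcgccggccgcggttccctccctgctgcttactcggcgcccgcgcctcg

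The multiplexins COL18A1 and COL15A1 sit in or near basement membranes, and the C-terminal part of COL18A1 is released as endostatin. COL18A1 had 324, 316 and 313 CPM at day 10, 352, 366 and 402 at day 15, 144, 157 and 157 by day 20, and 104, 114 and 109 by day 25. It was higher early and lower late: the fall to day 20 was -1.29 ± 0.043 (SE; edgeR adjusted p = 1.2e-26) and day 25 lay below day 20. Its exons overlap those of SLC19A1 on the other strand, a gene with 13002 counts beside 84848 for COL18A1. COL15A1 had 5.27, 5.12 and 5.37 CPM at day 10, 6.62, 6.53 and 7.43 at day 15, 9.49, 9.40 and 9.02 by day 20, and 10.8, 9.48 and 10.3 by day 25. Day 25 against day 10 gave a rise of 0.96 ± 0.14 (SE; edgeR adjusted p = 3.7e-08). The call at day 15 was lost without day 15 replicate 3 and turned negative with library-size scaling.

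Collagens with interrupted helices decorate the surface of fibrils. COL12A1, COL14A1, COL16A1, COL21A1 and COL22A1 had day 10 means from 0.252 to 3.19 CPM, and all 5 were higher at day 25 than at day 10. COL12A1, found in tendon and ligament, had 0.127, 0.427 and 0.203 CPM at day 10, 4.81, 4.06 and 3.54 at day 15, 31.7, 26.2 and 30.6 by day 20, and 25.5, 24.2 and 21.2 by day 25. It rose at each of the first steps, by 3.93 ± 0.26 (SE; edgeR adjusted p = 8.7e-18) and by 2.83 ± 0.13 (SE; edgeR adjusted p = 1.4e-22); the fall to day 25 was lost without day 20 replicate 1, day 20 replicate 3 or day 25 replicate 3. COL14A1 had 2.29, 3.64 and 3.65 CPM at day 10, 3.80, 5.85 and 5.18 at day 15, 25.3, 23.4 and 21.3 by day 20, and 14.7, 11.9 and 11.6 by day 25. Its highest day was day 20 and it fell by 0.88 to day 25. COL16A1 had 0.889, 1.00 and 0.743 CPM at day 10, 2.24, 2.51 and 2.25 at day 15, 7.72, 9.11 and 10.0 by day 20, and 10.9, 12.9 and 12.1 by day 25. It ended 13.5-fold above day 10, and the last step was lost without day 20 replicate 1 or day 25 replicate 2. COL21A1 had 0.762, 0.678 and 0.844 CPM at day 10, 0.380, 0.193 and 0.241 at day 15, 10.2, 13.9 and 11.2 by day 20, and 6.62, 6.58 and 5.15 by day 25. After a fall at day 15 it rose 42.2-fold to day 20 (log2 5.40 ± 0.27 (SE; edgeR adjusted p = 1.3e-21)). COL22A1, known from tissue junctions, had 2.79, 2.56 and 2.97 CPM at day 10, 15.2, 13.7 and 14.8 at day 15, 11.5, 9.77 and 10.6 by day 20, and 11.8, 14.8 and 13.9 by day 25. It was low at day 10 and between 9.77 and 15.2 CPM thereafter, and its last step was lost without day 20 replicate 2 or day 25 replicate 2.

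Type IX collagen coats type II fibrils in cartilage. COL9A2 had 2.67, 4.52 and 4.39 CPM at day 10, 8.40, 7.59 and 10.7 at day 15, 20.2, 21.8 and 19.1 by day 20, and 19.6, 19.1 and 18.0 by day 25. COL9A3 had 0.826, 0.753 and 0.878 CPM at day 10, 2.91, 4.11 and 2.13 at day 15, 17.6, 13.9 and 16.7 by day 20, and 17.0, 16.3 and 18.4 by day 25. Both rose at days 15 and 20 and overlapped between days 20 and 25, and COL9A3 ended 21.0-fold above day 10, though its exons overlap TCFL5 on the other strand. COL9A1 had day means of 0.173, 0.152, 0.738 and 1.81 CPM; its rise from day 20 to 25 (log2 1.29 ± 0.52) was lost without any one of day 20 replicates 1 and 3 and day 25 replicates 1, 2 and 3. COL20A1 had 0.0662, 1.38, 0.230 and 0.470 CPM, with a call as higher at day 25 against day 20 when day 20 replicate 3 was left out. COL19A1, whose exons overlap LMBRD1 on the other strand, reached at most 0.605 CPM as a day mean and was called lower at day 20 against day 15 without day 20 replicate 3 (log2 -2.01 in place of -0.93).

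Membrane-spanning collagens are anchored in the cell surface and can be shed from it. COL17A1, the hemidesmosome collagen of epithelia, had 0.222, 0.276 and 0.0675 CPM at day 10, 14.5, 17.2 and 14.3 at day 15, 21.4, 22.4 and 23.7 by day 20, and 27.4, 28.3 and 30.7 by day 25. It was almost at 0 at day 10 and rose 75.8-fold to day 15 (log2 6.24 ± 0.20 (SE; edgeR adjusted p = 9e-29)), and went on to its highest mean at day 25. COL23A1 had 4.41, 3.87 and 3.95 CPM at day 10, 7.47, 5.85 and 8.24 at day 15, 68.3, 67.1 and 66.9 by day 20, and 119, 128 and 122 by day 25. It rose at every step, 30.2-fold in all (log2 4.92 ± 0.081 (SE; edgeR adjusted p = 4.6e-40)). COL13A1, found at neuromuscular junctions, had 0.889, 1.18 and 1.72 CPM at day 10, 0.675, 0.628 and 0.563 at day 15, 11.1, 14.4 and 13.2 by day 20, and 11.0, 8.49 and 7.84 by day 25. It rose 20.6-fold to day 20, and its later fall was lost without day 20 replicate 2, day 25 replicate 2 or day 25 replicate 3. COL25A1 had day means of 3.21, 8.73, 9.53 and 6.29 CPM. Of these 4, COL17A1 alone was above 10 CPM at day 15. The summed level of 6 epithelial markers was 169 to 174, 163 to 172, 1188 to 1250 and 428 to 443 CPM on the 4 days, so it peaked at day 20; its part in any collagen level was not tested.

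Type VIII collagen forms the lattice under corneal endothelium and in vessel walls. COL8A2 had 0.286, 0.176 and 0.0675 CPM at day 10, 0.928, 0.870 and 1.57 at day 15, 35.8, 34.9 and 33.9 by day 20, and 42.6, 45.7 and 39.5 by day 25. The step to day 20 was 30.5-fold (log2 4.93 ± 0.15 (SE; edgeR adjusted p = 3.5e-30)) and day 25 stood 234-fold above day 10; the last step was lost without day 25 replicate 2. COL8A1, its partner chain, had 1.41, 0.600, 2.37 and 3.74 CPM, and its last step passed the threshold when day 10 replicate 2 or 3 or any day 15 library was left out. COL7A1, the anchoring fibril collagen of skin, had 9.15, 9.11 and 8.78 CPM at day 10, 11.0, 9.47 and 11.4 at day 15, 5.35, 5.56 and 4.24 by day 20, and 9.36, 9.02 and 9.54 by day 25. It was lower at day 20 than on either side. COL26A1 had 5.94, 5.17 and 7.26 CPM at day 10, 3.92, 2.17 and 3.90 at day 15, 15.1, 15.7 and 13.9 by day 20, and 14.8, 13.1 and 13.1 by day 25. It fell to day 15 and rose to day 20 by 2.14 ± 0.16 (SE; edgeR adjusted p = 9.4e-16). COL28A1 and COL10A1, the collagen of hypertrophic cartilage, did not pass the filter, with 43 and 35 counts and highest day means of 0.184 and 0.133 CPM.

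Pairs of genes were compared by the ratio of their counts per kb of exon, a quantity within each library that no scaling touches. In 5 pairs the chains assemble together, and COL1A1 to COL3A1 sets the type I chain beside that of type III. COL1A1 to COL1A2 was 1.75 ± 0.0344, 2.54 ± 0.0740, 1.40 ± 0.0311 and 1.98 ± 0.0250 on days 10, 15, 20 and 25. It was highest at day 15 and lowest at day 20. COL4A1 to COL4A2 was 0.888 ± 0.0295, 0.483 ± 0.0118, 1.11 ± 0.0409 and 1.19 ± 0.0309. The day 15 peak of the pair thus came with the lowest ratio, since COL4A2 rose more. COL4A5 to COL4A6 was 4.36 ± 0.379, 5.23 ± 0.601, 3.23 ± 0.0376 and 2.07 ± 0.0605. COL5A1 to COL5A2 was 0.625 ± 0.0151, 0.871 ± 0.0350, 0.975 ± 0.0389 and 1.09 ± 0.0475, and COL6A1 to COL6A2 was 0.698 ± 0.0186, 0.660 ± 0.0185, 0.885 ± 0.0371 and 0.996 ± 0.00940, both highest at day 25. COL1A1 to COL3A1 was 0.331 ± 0.00255, 0.546 ± 0.0131, 0.177 ± 0.00409 and 0.399 ± 0.0112, with its low at day 20. In exact permutation F tests over 15400 partitions, the adjusted p over the 6 ratios was 7.8e-05 for 5 of them and 0.00013 for COL6A1 to COL6A2. The levels of a ratio depend on the length used: with the longest coding transcript the day 25 values were 1.40, 0.890, 2.75, 1.38, 0.807 and 0.474 in the order given. The order of the days is the same, since a length is a constant factor.

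**Figure D5:**
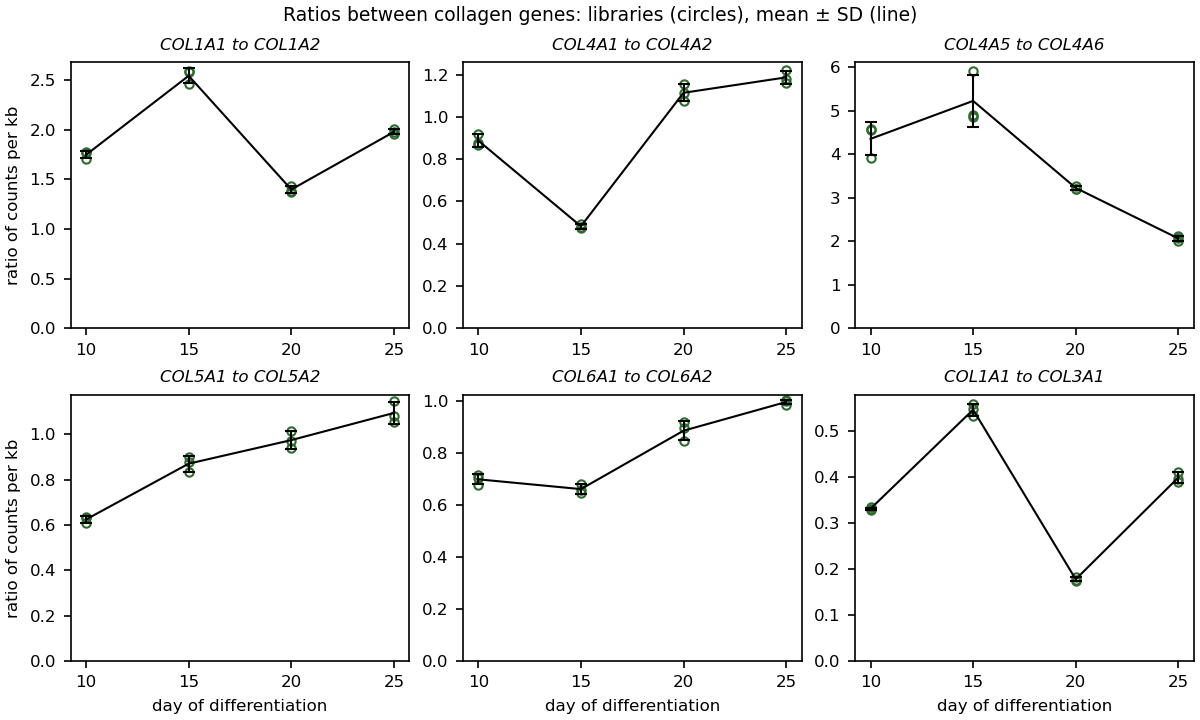
Ratio of counts per kb of exon between 6 pairs of collagen genes (y axes from 0, a separate range per panel) against day of differentiation; circles are libraries, and the line joins day means with SD bars (n = 3). COL4A1 to COL4A2 dips to 0.483 at day 15, and COL1A1 to COL3A1 to 0.177 at day 20.

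Genes listed for the modification, folding and handling of procollagen in the cell were mostly lower at day 15, when the collagen sum was higher. The list is not of enzymes alone, as it also holds CREB3L1, LARP6, MIA2, MIA3, TMEM38B, CRTAP and SERPINH1. Of 23 genes 6 were higher and 14 lower in the first step, with a median log2 change of -0.33 where that of all tested genes was 0.20 (42.4% higher and 30.8% lower). In the second step 18 were higher and 3 lower (median 1.00, all tested genes 40.6% and 36%), in the third 6 and 12 (median -0.16, all tested genes 24.5% and 25.1%). FKBP10, a procollagen chaperone, went from 169 ± 5.53 to 35.4 ± 1.35 CPM, and SERPINH1, the collagen chaperone HSP47, had day means of 230.4, 74.9, 158 and 148 CPM. PLOD2, a lysyl hydroxylase, had 31.7, 143, 67.5 and 23.4 CPM, and P3H2, a prolyl 3-hydroxylase, 7.41, 36.5, 30.8 and 11.0 CPM, so both were highest at day 15. COLGALT1, which adds galactose to hydroxylysine, rose from 76.1 ± 1.78 to 306 ± 8.60 CPM at day 20. P4HA1, a prolyl 4-hydroxylase subunit, had 27.2, 30.1, 93.8 and 83.8 CPM.

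A further 14 genes were listed for enzymes, and enhancers of them, that trim and cross-link collagen outside the cell. Of these 1 was higher, 7 lower and 6 not called in the first step (all tested genes 42.4% higher and 30.8% lower). The second step had 10 higher and 1 lower (40.6% and 36%), the third 5 and 5 (24.5% and 25.1%), and the whole course 11 and 3 (38.6% and 36%). The gene that was higher at day 15 was LOXL2, a lysyl oxidase-like enzyme, with day means of 9.46, 23.5, 25.6 and 32.9 CPM. LOX had 19.0, 6.91, 14.3 and 11.3 CPM and BMP1, the C-proteinase of procollagen, 25.9, 11.6, 31.5 and 38.6 CPM. PCOLCE, the enhancer of that proteinase, rose from 9.51 ± 1.07 to 36.3 ± 3.29 CPM.

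Collagen receptors rose over the course in 10 of 13 genes and fell in 3 (all tested genes 38.6% and 36%). The first step had 7 higher and 1 lower (42.4% and 30.8%), the second 7 and 6 (40.6% and 36%), the third 9 and 3 (24.5% and 25.1%). OSCAR, an osteoclast-associated collagen receptor, had day means of 0.192, 14.3, 46.3 and 65.9 CPM, and LAIR1, an inhibitory receptor of leukocytes that binds collagen, 5.80, 63.7, 188 and 229 CPM. Of the collagen-binding receptor kinases, DDR1 had 8.64, 7.46, 40.1 and 32.9 CPM and DDR2 had 7.66, 5.69, 38.5 and 25.1 CPM. ITGA11, an integrin chain for fibrillar collagen, rose at each step, with 0.642, 2.12, 16.8 and 37.7 CPM. The 6 genes lower in the second step were GP6 and ITGA2, both given with COL24A1, and ITGB1, ANTXR2, ITGA1 and ITGA10. ITGB1 had day means of 436, 901, 282 and 503 CPM, and ANTXR2 had 17.9, 173, 67.8 and 105 CPM. In the third step GP6 was lower again and ITGA10 was not called, while ITGB1, ANTXR2, ITGA1 and ITGA2 were higher.

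All 8 genes for enzymes that degrade collagen were higher at day 25 than at day 10, where 38.6% of all tested genes were. The first step had 6 higher and 2 lower (all tested genes 42.4% and 30.8%), the second 7 and 1 (40.6% and 36%), and the third 6 and 1 (24.5% and 25.1%). MMP9, a gelatinase, went from 68.0 ± 2.66 CPM at day 20 to 1163 ± 31.9 at day 25 (log2 4.10 ± 0.04 (SE; edgeR adjusted p = 9.8e-47)). MMP8, the neutrophil collagenase, had 0 counts at day 10 and 126 ± 8.27 CPM at day 25, and CTSK, the osteoclast cathepsin, 12.3 ± 1.66 and 87.5 ± 1.35 CPM on the last days. The summed level of 6 macrophage markers was 96.4 to 105, 525 to 582, 1916 to 1987 and 3999 to 4150 CPM on the 4 days; its part in these levels was not tested.

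Of 14 proteoglycan and glycoprotein genes that bind fibrils, 13 were tested; 7 were higher and 3 lower in the first step (all tested genes 42.4% and 30.8%), 6 and 3 in the second (40.6% and 36%), 4 and 6 in the third (24.5% and 25.1%), and 9 and 2 over the course (38.6% and 36%). The shares of the first steps, 53.8% and 23.1%, then 46.2% and 23.1%, lay near those of all genes. DCN (decorin) and LUM (lumican) had their highest means at day 20: DCN had 22.0, 26.9, 381 and 154 CPM over the days, and LUM had 109, 60.2, 437 and 157 CPM. TNXB, tenascin X, whose near-identical pseudogene TNXA could share its reads, had 28.9, 234, 6.51 and 3.31 CPM, and THBS1, thrombospondin of platelets and other cells, 9377, 20070, 901 and 523 CPM, so both were highest at day 15. FN1, fibronectin, rose 12.1-fold to 8837 ± 121 CPM at day 25, while COL3A1 fell.

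Markers of matrix-making cells gave these values beside the collagens. The summed level of 10 fibroblast and stromal markers was 182 to 186, 179 to 187, 961 to 992 and 452 to 471 CPM on the 4 days. In the second step 8 of 9 tested were called higher, and in the third 4 were lower and 1 higher. LUM (437 CPM) and DCN (381 CPM), already given as fibril partners, held most of the day 20 sum. PDGFRA was not called in the second step (59.7 and 59.5 CPM). Smooth muscle and pericyte markers, 7 genes, summed to 30.9 to 31.4, 55.7 to 61.6, 86.2 to 87.9 and 166 to 169 CPM. In the second step 4 of the 7, with ACTA2 and CNN1 among them, were lower and 2 higher, and RGS5 alone went from 2.95 to 43.5 CPM. Endothelial markers, 6 genes, summed to 1206 to 1250, 1540 to 1571, 250 to 261 and 266 to 278 CPM. In the first step PECAM1 (770 to 986 CPM) and ESAM (249.5 to 525 CPM) were higher, while CDH5 (38.8 to 7.23 CPM), TEK (44.5 to 18.4 CPM), TIE1 (114 to 19.1 CPM) and CLDN5 (7.08 to 2.53 CPM) were lower; in the second all 6 were lower. Hepatic and yolk sac markers, 6 genes, summed to 19.9 to 20.5, 85.2 to 87.7, 683 to 697 and 135 to 137 CPM. DPT, a dermal fibroblast gene of the stromal list, had 0 counts at days 10 and 20, and IBSP, a bone gene, at days 10, 20 and 25. The part of any of these cell types in the collagen levels was not tested.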

How the data were processed

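RNA from H9 cells at 4 days of differentiation was sequenced in 12 libraries, per the labels with the LM-Seq method on total RNA and with single reads. The file deposited by the authors holds raw counts, with 1 row a gene and 1 column a library and no normalisation. The submitters' processing notes name the build GRCh38; no aligner, counter, annotation or strand setting is given in the sources used here, so genes that overlap on opposite strands cannot be told apart. A count of 2 was more frequent than a count of 1 in each library, so reads need not be independent fragments, and errors from counting cover counting only. A symbol was found for 36366 of 36601 gene IDs, and the 235 others held 0.091% of counts. Gene models, exon lengths and coordinates were taken from GENCODE release 29 and promoters from RefSeq on GRCh38.p14, which held 32 of the 44 genes.

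Counts were fitted for all 12 libraries with edgeR 4.0.16 in R 4.3.3 (filterByExpr with a minimum count of 10, TMM, robust glmQLFit and glmQLFTest, no covariate), with Benjamini-Hochberg adjustment over the 20183 genes tested and a common biological coefficient of variation of 6.03%. The 3 counts taken as a floor were 0.0723 to 0.145 CPM in a library. Sums over a class and ratios of counts per kb of exon were compared by an exact permutation F test. Libraries of a day differed by more than counting noise (chi-square per degree of freedom 3.49 to 5.16), so none was taken as a library deposited a second time; where reads are not independent this value is raised, and it does not show separate cultures. Genes with a day mean of at least 10 CPM were given in every library, those from 1 to 10 CPM by day means and the rest by their highest mean; from each list of partner genes, up to 4 called members of at least 10 CPM with no overlap between days and the largest change were preferred, and SERPINH1, P4HA1, LOX, DDR1, DDR2 and others were named from the lists for their roles, after their values were seen. The members and the lists were chosen with earlier results of these data known. The tests were tested on simulated data. Alternatives were library-size scaling, DESeq2 size factors, scaling without the collagen genes, no filter, a stricter filter, DESeq2 1.42.0, limma-voom with limma 3.58.1, a replicate block, fits to the compared days alone and leaving out each library in turn. Figures were drawn with matplotlib 3.10.9 in Python 3.11.15.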

Additional observations from a re-analysis of the deposited data

How the results depend on the processing

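Counts of called collagens moved by more than 1.5 times with library-size scaling alone among the scalings, filters, tools and fits tried: 16 lower at day 15 against day 10 in place of 7, and 8 higher at day 25 against day 20 in place of 14. Leaving out each library in turn gave 28 to 30 higher and 7 to 8 lower at day 15 against day 10, 25 and 9 to 10 at day 20 against day 15, 9 to 15 and 14 to 16 at day 25 against day 20 (the 9 without day 25 replicate 2), and 32 and 3 to 5 at day 25 against day 10. Of 37, 35, 30 and 36 single calls, 34, 34, 23 and 35 held whichever library was left out. Sums over classes and ratios of chains kept their side of the threshold in every alternative run.

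With library-size scaling the log2 change turned sign at day 15 against day 10 for COL15A1 (-0.14), COL18A1 (-0.30), COL1A2 (-0.078), COL3A1 (-0.26), COL5A1 (-0.14), COL6A1 (-0.40), COL6A2 (-0.32) and COL7A1 (-0.29), at day 20 against day 15 for COL11A2 (0.51), COL22A1 (0.16), COL4A5 (0.61) and COL6A3 (0.040), and at day 25 against day 20 for COL4A1 (-0.059) and COL4A2 (-0.15). Without the filter it turned for COL6A1 at day 15 (-0.066) and COL4A5 at day 20 (0.23), and in the fit to days 10 and 15 alone for COL6A1 (-0.042). No filter and that fit also ended the day 15 calls of COL15A1, COL18A1 and COL6A2, and no filter that of COL3A1. The cause was not tested. All reversed changes were under 0.6 in size in the fit as reported.

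Libraries of different days share replicate numbers, but same-numbered libraries did not deviate together (correlations from -0.0164 to 0.0156), so the numbers are not taken as pairs. With a replicate block the collagen counts were 30 and 7, 25 and 10, 14 and 16, and 32 and 4, and no single call changed. Depth limits COL4A3, COL28A1 and COL10A1, which had 71, 43 and 35 counts in all and did not pass the filter, so their changes were not tested.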
